A study of Homo sapiens with 3 samples.

Results

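PCA3 and PRUNE2 occupy the same stretch of chromosome 9 on opposite strands, and the results concern the regions that 2 histone marks form across them in LNCaP. Members were all called regions of H3K27ac and H3K4me1 that overlapped chr9:79180001-79580000 (hg19, counted from 1). They numbered 158 of 271891 deposited regions, that is 67 of 71078 for H3K27ac and 91 of 200813 for H3K4me1. PRUNE2 lay at 79.226 to 79.521 Mb on the minus strand, and PCA3 at 79.379 to 79.402 Mb on the plus strand inside it. These bounds were known to the nearest 1 kb only. The locus was chosen by its H3K27ac covered length, seen in earlier results of these lists, so that length is given as a description and supports nothing.

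LNCaP is an established, androgen-responsive line from a metastatic human prostate carcinoma. It was grown under the supplier's standard conditions, and the labels name no treatment. Crosslinked chromatin was precipitated with antibodies against H3K27ac or H3K4me1, with 1 library per mark, and an input library without antibody is part of the series but was not analysed here. A called region is a stretch that the authors' software marked as enriched. With 1 library per mark there was no replicate spread and no test, and the lists hold no read counts, so the depth is unknown and a stretch without a region cannot be read as lacking the mark.

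PCA3 (gene ID 50652) is a long noncoding RNA known for its prostate-restricted expression and its use as a urine marker of prostate cancer. PRUNE2 (gene ID 158471) encodes a protein with a BCH domain, and the PCA3 transcript runs antisense to one of its introns. H3K27ac is found at active promoters and enhancers, and H3K4me1 at enhancers whether active or only primed. ChIP reads carry no strand of transcription, so a mark over PCA3 lies over an intron of PRUNE2 as well and cannot be given to either gene.

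The sequences before the gene starts are shown first, since the marks at these starts are described next. The 250 bases before each start were taken from RefSeq (GRCh38.p14), 5′ to 3′ on the gene's own strand, with every CpG in capitals. The PCA3 stretch is chr9:76764186-76764435 on the plus strand and the PRUNE2 stretch is chr9:76906115-76906364 on the minus strand, both in GRCh38.p14 and not converted to the hg19 positions used for the regions.
PCA3: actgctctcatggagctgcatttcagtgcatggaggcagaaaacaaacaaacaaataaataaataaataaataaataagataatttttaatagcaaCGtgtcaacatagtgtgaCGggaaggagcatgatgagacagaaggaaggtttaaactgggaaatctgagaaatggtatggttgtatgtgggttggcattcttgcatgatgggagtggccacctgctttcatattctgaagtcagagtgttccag
PRUNE2: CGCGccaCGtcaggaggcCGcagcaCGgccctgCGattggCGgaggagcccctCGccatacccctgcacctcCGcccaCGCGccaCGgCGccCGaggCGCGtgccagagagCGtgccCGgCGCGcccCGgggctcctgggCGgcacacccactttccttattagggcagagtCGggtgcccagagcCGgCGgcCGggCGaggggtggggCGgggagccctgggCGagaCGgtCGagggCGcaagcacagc

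The PRUNE2 sequence held 32 CpG and was 76.4% G or C, whereas the PCA3 sequence held 2 CpG and was 39.2% G or C. Among 34943 RefSeq promoters of this length the median was 11 CpG and 58.0% G or C. At least as many CpG as before PRUNE2 were present in 9.51% of them, and at least as many as before PCA3 in 85.3%. The GC box GGGCGG, searched on both strands and overlapping the CpG it contains, occurred 3 times before PRUNE2 and 0 times before PCA3, and 42.5% of all promoters held it. The CCAAT box CCAAT occurred 1 time before PRUNE2 and 0 times before PCA3, against 32.0% of promoters with a match. Neither sequence held TATAAA (10.8% of promoters), the androgen receptor core motif AGAACA (12.4%) or the forkhead core TGTTTAC (2.98%), each searched on both strands. The table lists 2 starts for each gene, and the outermost was used.

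The annotated PRUNE2 start lay inside a broad block of both marks. H3K27ac formed 1 region of 16250 bp at chr9:79506101-79522350, which ran from 14.9 kb inside the gene to 1.35 kb before its start and had a score of 0.001, the lowest in the list. The score is the authors' unnamed value per region, and a low score was read as the stronger call. H3K4me1 covered 93.2% of this region in 3 pieces. The largest of them, chr9:79507401-79519350 with 11950 bp, was the widest H3K4me1 region of the window and lay wholly inside H3K27ac. A further H3K4me1 region of 2150 bp, chr9:79520101-79522250, held the start itself. No H3K4me1 break longer than 750 bp was present within this H3K27ac region.

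No broad H3K27ac region was called at the PCA3 start. H3K4me1 formed a region of 2900 bp across it, chr9:79377101-79380000, with a score of 0.003, against a median H3K4me1 width of 1050 bp over all chromosomes. The rounded start position, 79.379 Mb, fell in a gap between the H3K27ac regions chr9:79377701-79378750, with 1050 bp, and chr9:79379151-79379950, with 800 bp. Because of the rounding it cannot be said whether the start lay in the gap or in 1 of these regions. Their scores, 0.020 and 0.021, were above the list median of 0.009.

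**Figure D1:**
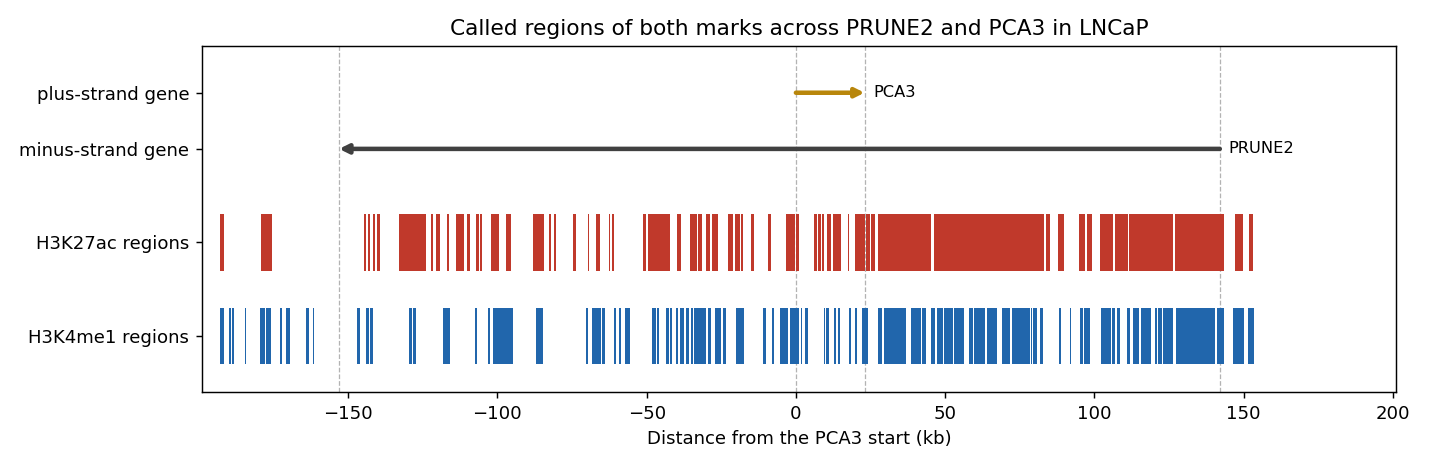
Called H3K27ac regions (red) and H3K4me1 regions (blue) along the window, with distance from the PCA3 start in kb on the horizontal axis. Arrows show the direction of PRUNE2 and PCA3, dashed lines their bounds, and each block is 1 called region drawn to scale. Broad H3K27ac blocks take up most of the stretch between the PCA3 end and the PRUNE2 start, with narrower blocks between them. Both lists stop within 12 kb before that start.

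Within PRUNE2 the marks were densest between PCA3 and the PRUNE2 start. This 5′ side, 119 kb long, was covered by H3K27ac over 85.4% of its length and by H3K4me1 over 67.1%. PCA3, 23.0 kb long, was covered over 47.4% by H3K27ac and 34.1% by H3K4me1. The 3′ side of PRUNE2, 153 kb between PCA3 and the end of the gene, was covered over 39.1% and 32.4%. All chromosomes together were covered over 4.65% by H3K27ac and 9.45% by H3K4me1, and chromosome 9 over 4.10% and 9.16%, measured over spans that include region-free stretches. Copy number was not corrected for, and its part in these values was not tested.

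PCA3 stood close to the 3′ side, and their order depended on the score limit. With only regions of a score at or below the list median, H3K27ac covered 13.7% of PCA3 and 17.7% of the 3′ side, and H3K4me1 13% and 22.7%. The 5′ side kept 73.6% and 62.3% under the same filter. PCA3 held 9 H3K27ac regions, of which 1 had a score at or below the median, where 58.9% of all H3K27ac regions did. That region was its widest, with 3200 bp. In the window a low score went mostly with a wide H3K27ac region, and those of 5 kb or more all scored 0.001 or 0.002. The filter therefore selects by width as well, and the score cannot be read apart from it.

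The flanks carried much less H3K27ac than the gene. The flank beyond the PRUNE2 end, 46.0 kb, was covered over 10.8% by H3K27ac in 2 regions and over 22.5% by H3K4me1 in 10 regions. The flank before the PRUNE2 start, 59.0 kb, was covered over 9.24% and 11.6%, all of it within 12 kb of the start. The last H3K27ac region ended 11.1 kb before the start, and the last H3K4me1 region 11.4 kb before it. The next H3K27ac region followed 70.1 kb further on and the next H3K4me1 region 53.4 kb further on, both outside the window.

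**Figure D2:**
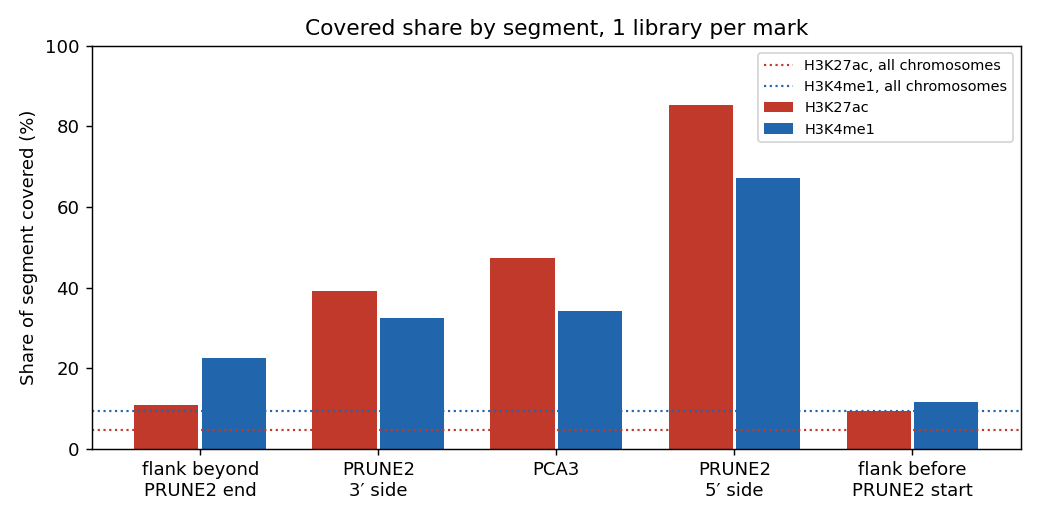
Share of each segment's length covered by H3K27ac (red) and H3K4me1 (blue), in percent, for the 2 flanks, the 2 sides of PRUNE2 and PCA3. Bars are single values from 1 library per mark, and dotted lines give the share over all chromosomes. The 5′ side reaches 85.4% and 67.1%, PCA3 47.4% and 34.1%, and the flanks stay at or below 22.5%.

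The nearest regions outside the window were 650 to 1900 bp wide. Inside it, the first H3K27ac region was chr9:79186201-79187400 and the last chr9:79530751-79532050. The nearest H3K27ac regions outside were chr9:79159101-79160900, with 1800 bp, and chr9:79602151-79602800, with 650 bp. For H3K4me1 they were chr9:79160151-79162050, with 1900 bp, and chr9:79585751-79586600, with 850 bp.

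In windows of the PCA3 length laid outward from its bounds, H3K27ac covered more of each window wholly inside the 5′ side than of PCA3. The next window, which crossed the PRUNE2 start, was covered over 41.1%, and the flank window after it over 0%. Windows placed this way do not resolve where along PCA3 the cover changes. The 6 windows inside PRUNE2 on the 3′ side were covered by H3K27ac over 51.3%, 43.0%, 25.9%, 32.4%, 53.5% and 40.9%, taken in order toward PCA3. PCA3, at 47.4%, lay within their range. The 5 windows on the 5′ side were covered over 89.8%, 99.1%, 73.7%, 65.9% and 96.1%, so the lowest of them exceeded PCA3 and all 6 on the other side. H3K4me1 gave 19.3%, 35.2%, 12.2%, 41.5%, 57.4% and 37.8% on the 3′ side, 34.1% at PCA3, and 65.9%, 74.3%, 54.6%, 52.2% and 86.1% on the 5′ side. For this mark the groups overlapped, since the 57.4% window exceeded 2 of the 5.

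Few stretches of this length elsewhere were covered as much. Of 134470 tiles of 23.0 kb laid over all chromosomes, 1183 (0.88%) had at least as much H3K27ac as PCA3 and 9434 (7.02%) at least as much H3K4me1. The median tile held no H3K27ac and 3.70% H3K4me1. Only 40 tiles (0.0297%) reached the H3K27ac share of the second window toward the PRUNE2 start, 99.1%. The window chosen for its H3K27ac had to rank high in that mark, so nothing is read from these shares.

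**Figure D3:**
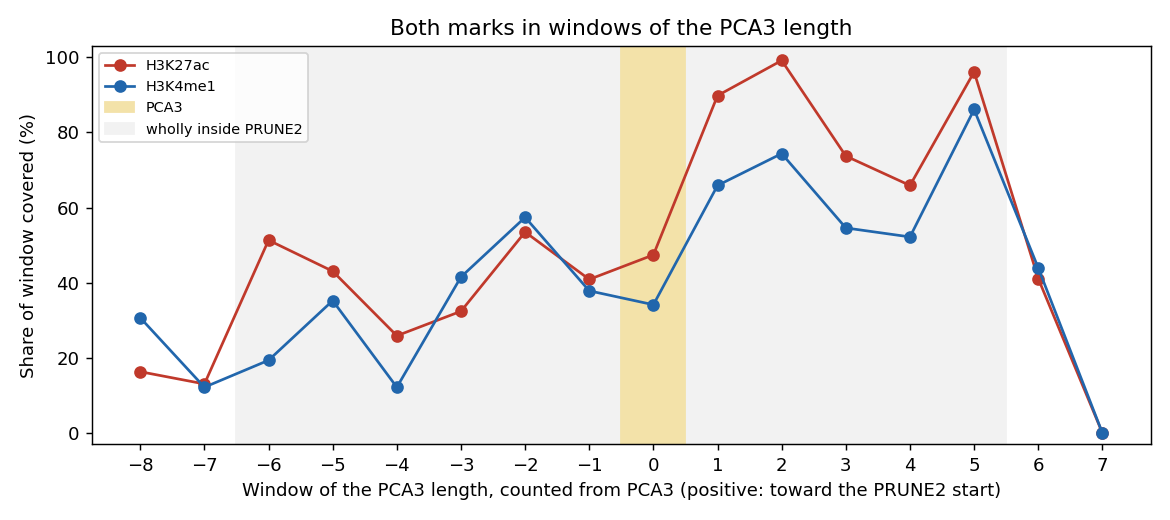
Share of each window of 23.0 kb covered by H3K27ac (red) and H3K4me1 (blue), in percent, against the window's place relative to PCA3, with positive numbers toward the PRUNE2 start. Yellow marks PCA3 and grey the windows wholly inside PRUNE2. H3K27ac goes from 47.4% at PCA3 to 89.8% in the next window, and both marks are at 0 in the last window.

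The 5′ side owed most of its H3K27ac to 4 regions of 10 kb or more, a width that 0.625% of all H3K27ac regions reached. They measured 14800 bp (chr9:79406451-79421250), 36900 bp (chr9:79425201-79462100), 13550 bp (chr9:79490701-79504250) and 16250 bp, the region at the PRUNE2 start. Together they spanned 81.5 kb. Without the part that ran past the PRUNE2 start, they made up 78.8% of the H3K27ac length of the 5′ side. All had the lowest score, 0.001, which 14.3% of all H3K27ac regions carried. Chromosome 9 held 15 regions of this width, and the 36900 bp region was the widest H3K27ac region on it. In the whole list 19 regions were at least as wide.

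These broad regions carried H3K4me1 along most of their length, as many separate pieces. H3K4me1 covered 77.2% of the 36900 bp region in 14 pieces of 250 to 3650 bp. The 13 breaks between them had a median of 400 bp and reached 1700 bp. It covered 79.7% of the 14800 bp region in 3 pieces and 75.6% of the 13550 bp region in 6. Across all chromosomes, the 21 H3K27ac regions of similar width to the 36900 bp region, from 20% narrower to 25% wider, had a median of 75.7% and quartiles of 63.7% and 95.4%. The corresponding medians for the 14800, 13550 and 16250 bp regions were 88.0%, 88.1% and 82.6%, with quartiles of 61.7% and 97.1%, 69.6% and 97.4%, and 57.5% and 96.1%. The 4 regions therefore lay within the quartiles of regions of their width. H3K4me1 of 10 kb or more was present once in the window, at 11950 bp, and 0.329% of all H3K4me1 regions reached that width.

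Short breaks separated many H3K27ac regions of the 5′ side. Joined across breaks of up to 1 kb, the broad regions and their neighbours formed 3 runs. These were 25.3 kb (chr9:79398851-79424150), 38.8 kb (chr9:79425201-79464000) and 41.7 kb (chr9:79480701-79522350) long. H3K27ac covered 94.1%, 97.9% and 94.5% of them. The first run began inside PCA3 and crossed its end, since the region chr9:79398851-79402050, with 3200 bp, held the PCA3 end. Of 64342 such runs in the list, 26 were at least as long as the longest of the 3. Between the second and the third run the regions were narrow, at 550 to 1750 bp. This stretch also held the widest H3K27ac gap of the 5′ side, 5300 bp from 79468651 to 79473950.

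The 3′ side of PRUNE2 was built of many narrow H3K27ac regions. Its 37 regions had a median width of 1000 bp and were separated by a median of 1950 bp, with the widest gap at 9600 bp (chr9:79318101-79327700). PCA3 was alike in this, with 9 regions of 550 to 3200 bp, a median width of 1100 bp and a median gap of 975 bp. The median H3K27ac width over all chromosomes was 1600 bp and the median gap 13600 bp. The window as a whole held larger shares of both extremes than the list, with 37.3% of its H3K27ac regions under 1 kb against 21.7%, and 8.96% of 5 kb or more against 4.24%. On the 3′ side 6 of 37 regions had a score at or below the list median, and on the 5′ side 7 of 18, both smaller shares than the 58.9% of all regions.

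The 2 widest H3K27ac regions of the 3′ side were covered by H3K4me1 less than the median region of similar width. The region chr9:79246051-79255100, with 9050 bp and the lowest score of 0.001, was covered by H3K4me1 over 23.8%. Its 2150 bp of H3K4me1 lay in 2 pieces near the middle, with 3450 bp free on one side and 3200 bp on the other. Among 773 H3K27ac regions of similar width the median was 88.6%, and 22 (2.85%) were covered no more than this region. The region chr9:79329301-79336950, with 7650 bp and a score of 0.002, was covered over 42.5%, against a median of 87.9% in 1197 regions of similar width, of which 8.27% were covered no more.

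A smaller part of the H3K27ac length carried H3K4me1 in PCA3 and on the 3′ side than on the 5′ side. Of the H3K27ac length, 41.3% lay in H3K4me1 regions in PCA3, 41.6% on the 3′ side and 74.2% on the 5′ side. The share was 71.5% over all chromosomes. Conversely, 94.4% of the H3K4me1 length of the 5′ side lay in H3K27ac, against 57.3% in PCA3, 50.2% on the 3′ side and 35.1% over all chromosomes. The choice of the locus by its H3K27ac length favours a high value of this second share, so it is given as a description. In PCA3 the first share was 26.6% when only H3K4me1 regions with a score under 0.05 were kept, a limit chosen after the data were seen.

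By number, 45 of the 67 H3K27ac regions (67.2%, exact Clopper-Pearson 95% interval 54.6% to 78.2%) overlapped H3K4me1 by at least 1 bp, where 83.1% of all H3K27ac regions did. The interval treats neighbouring regions as independent, which they are not, and covers counting error only. Of the 22 regions without H3K4me1, 17 lay on the 3′ side, 3 in PCA3 and 2 on the 5′ side. They were 550 to 2850 bp wide, and 10 of them lay within 1 kb of an H3K4me1 region. When both lists were limited to scores at or below their medians, 17 H3K27ac regions were left and all 17 overlapped H3K4me1. No share over all chromosomes is given here for that filter or for the 1 kb distance, so those counts are not read further.

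The overlap by number is also given by width class. Under 1 kb, 11 of 25 regions of the window overlapped H3K4me1 (44.0%, interval 24.4% to 65.1%), against 62.8% of all regions of that width. From 1 to 2 kb it was 18 of 25 (72.0%, interval 50.6% to 87.9%) against 82.6%, and from 2 to 5 kb 10 of 11 against 95.1%. At 5 kb or more it was 6 of 6 against 99.4%. The window's share was the lower value in each of the 3 classes under 5 kb, but not in the widest class. These differences were not tested and rest on few regions.

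**Figure D4:**
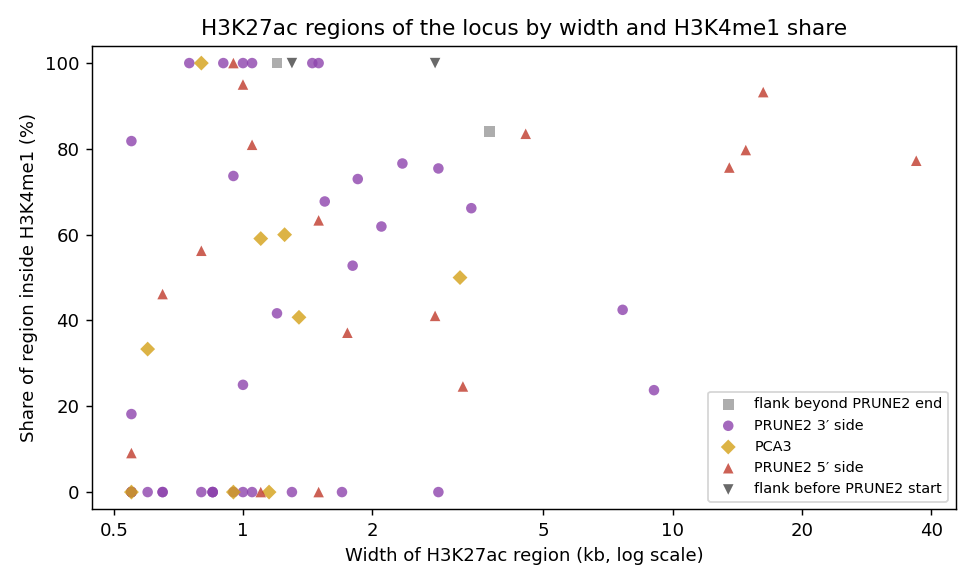
Each point is 1 of the 67 H3K27ac regions, placed by its width in kb on a log axis and by the percent of it inside H3K4me1, with colour and shape for the segment that holds its midpoint. The 4 regions above 10 kb lie between 75.6% and 93.2%, while the 2 widest regions of the PRUNE2 3′ side lie at 23.8% and 42.5%. Points at 0 are the 22 regions without H3K4me1.

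H3K4me1 regions of the window met H3K27ac far more often than elsewhere, in a stretch chosen for its H3K27ac. Of 91 regions, 69 (75.8%, interval 65.7% to 84.2%) overlapped H3K27ac, where 34.5% of all H3K4me1 regions did. On the 5′ side 35 of 36 did so, in PCA3 7 of 10 and on the 3′ side 24 of 35. Of the 36 on the 5′ side, 24 lay wholly inside H3K27ac, in a segment that H3K27ac covered over 85.4%. No share over all chromosomes is given here for lying wholly inside, so that count is not read further. Of the 22 H3K4me1 regions without H3K27ac, 11 lay on the 3′ side, 7 in the flank beyond the PRUNE2 end, 3 in PCA3 and 1 on the 5′ side. The widest H3K4me1 region of the 3′ side, chr9:79277501-79282800 with 5300 bp, was covered by H3K27ac over 59.4%. That was close to the median of 59.6% among H3K4me1 regions of similar width. The second widest there was chr9:79344951-79348950, with 4000 bp and 63.8% in H3K27ac. On the 5′ side the second widest, chr9:79408601-79415750 with 7150 bp, lay wholly inside H3K27ac, as did the widest. The median H3K27ac cover among H3K4me1 regions of similar width was 63.1% for the second widest and 68.7% for the widest.

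Inside PCA3, 6 of 9 H3K27ac regions and 7 of 10 H3K4me1 regions met the other mark. The H3K27ac region by its start, chr9:79379151-79379950, lay wholly inside H3K4me1. The H3K27ac regions chr9:79385001-79385950, chr9:79386351-79387500 and chr9:79387701-79388250 carried no H3K4me1, and they filled part of the widest H3K4me1 gap of PCA3, 5050 bp from 79383201 to 79388250. Conversely, the H3K4me1 regions chr9:79380551-79381100 and chr9:79382051-79383200 lay in the widest H3K27ac gap, also 5050 bp, from 79379951 to 79385000. The remaining H3K27ac regions were chr9:79389501-79390850, chr9:79391551-79392800, chr9:79392901-79394000 and chr9:79396351-79396950, covered by H3K4me1 over 40.7%, 60.0%, 59.1% and 33.3%. The region at the PCA3 end was covered over 50.0%. The H3K4me1 region chr9:79401151-79403300, with 2150 bp, crossed that end, and chr9:79389151-79390050 had 900 bp. Apart from the 2 that crossed the ends of PCA3, its H3K4me1 regions were 550 to 1150 bp wide, and 1 of these 8 had a score at or below the list median, against 50.6% of all H3K4me1 regions.

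The PRUNE2 end lay in a gap of both marks. No H3K27ac region was called between 79203601 and 79234450, 30.9 kb around the end of the gene, and 4400 bp of H3K4me1 in 5 regions lay in that gap. H3K4me1 had its own gap of 14.4 kb from 79217751 to 79232100. In the flank beyond, the wider H3K27ac region, chr9:79199851-79203600 with 3750 bp and a score of 0.001, was covered by H3K4me1 over 84.0%, and the other, chr9:79186201-79187400, wholly. The H3K27ac regions before the PRUNE2 start, chr9:79525951-79528750 and chr9:79530751-79532050, were also wholly inside H3K4me1. The widest H3K4me1 regions of the flanks were chr9:79201401-79203300 and chr9:79199551-79201100, with 1900 and 1550 bp beyond the PRUNE2 end, and chr9:79525401-79529100, with 3700 bp before the PRUNE2 start. Inside PRUNE2, the widest H3K4me1 gap was 14.7 kb from 79294151 to 79308850, and it held 2350 bp of H3K27ac in 4 regions.

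Across the window as a whole, Spearman's rho between the covered lengths of the marks was 0.75. It was taken over 80 bins of 5 kb from the same 2 libraries and is given as a description. The value pools all segments, including 9 of 12 bins before the PRUNE2 start with neither mark. It does not say how closely the marks follow each other within a segment. On the 5′ side 21 of 24 bins were covered by H3K27ac over at least 50% and 11 completely. On the 3′ side 10 of 31 bins reached 50%, 4 held no H3K27ac and 8 held no H3K4me1.

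When regions at most 12500 bp apart were joined, the H3K27ac regions of PRUNE2 formed 1 cluster, chr9:79234451-79532050, the sixth longest of 37027 by covered length. Its 65 regions were the most among the 15 longest clusters, and they covered 59.7% of its span of 297.6 kb, which ranked 12th. H3K4me1 covered 62.0% of its H3K27ac length, against a median of 68.9% in the other 14, of which 6 had less. Because the locus was chosen by its H3K27ac covered length, the cluster's rank by that length is only a description. The rank also depended on the joining distance and on the score limit. With a joining distance of 5 kb the longest cluster of the window held 70.5 kb and ranked 17th, and with scores at or below the list median it held 57.7 kb and ranked 33rd. The cluster that remained in the second case, chr9:79398851-79462100, held 4 regions and ran from the PCA3 end into the 5′ side.

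**Figure D5:**
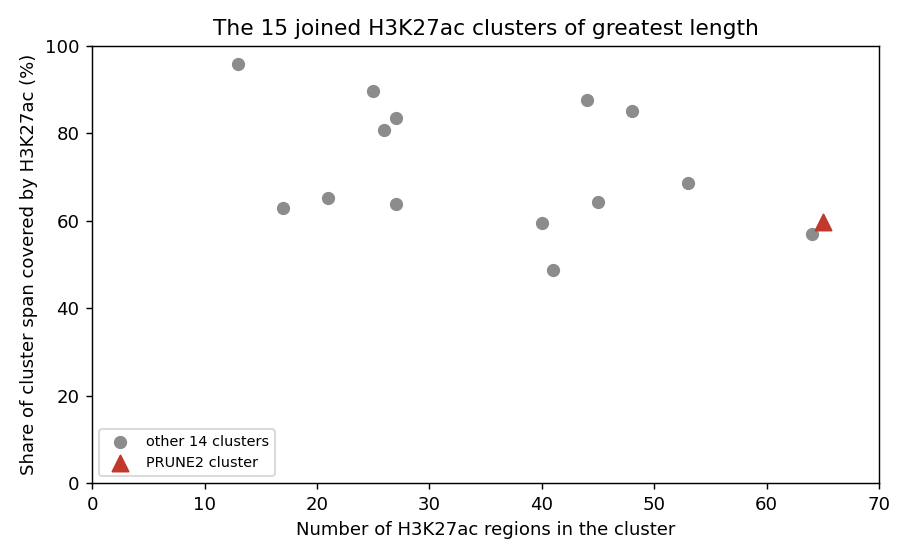
The 15 joined H3K27ac clusters of greatest covered length, by the number of regions in each and the percent of the cluster's span that H3K27ac covers. The red triangle is the PRUNE2 cluster, with 65 regions and 59.7% of its span covered, and grey points are the other 14.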

How the data were processed

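LNCaP ChIP-seq of H3K27ac and H3K4me1 was analysed from 1 deposited region list per mark. The submitters' processing notes name Bowtie 0.12.8 and the build hg19. Not given in the sources used here is how regions were called, at which threshold and whether against the input. The authors deposited start, end and an unnamed score per region, with 12 distinct values for H3K27ac and 13 for H3K4me1. The score served only to rank or filter within a list. The lists hold no counts, so the depth is unknown.

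The members and lists were chosen with earlier results of these data known. Locus bounds came from that choice and are rounded to 1 kb. A region that crosses a segment bound was counted in both segments. The 1 mitochondrial region per list was left out of genome values. Named regions were those at gene starts and ends, the 2 widest per mark and segment (by midpoint), regions of 10 kb or more, the widest gaps inside PRUNE2 and all H3K27ac regions of PCA3. Others were named after their values were seen. Values for neighbouring and androgen-regulated genes needed a hg19 annotation and were not computed. Interval functions were tested on simulated data, with 0 errors in 20 pairs of lists. Values were computed in Python 3.11.15 (pandas 2.3.3, numpy 2.4.6), intervals with scipy 1.17.1 and figures with matplotlib 3.10.9.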

Additional observations from a re-analysis of the deposited data

How the results depend on the processing

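Of 83 alternative values, 69 did not move, where moving meant a change of over 1.5 times, or for shares of regions a value outside the interval. Scores at or below the list median gave an H3K27ac cover of 17.7% on the PRUNE2 3′ side and 13.7% in PCA3, an H3K4me1 cover of 10.5% in the flank beyond the PRUNE2 end and 13% in PCA3, and 27% of the PCA3 H3K27ac length in H3K4me1. They also gave an overlap of 100% of H3K27ac regions and a cluster of 57.7 kb. Limiting H3K4me1 to scores under 0.05, chosen after seeing the data, gave 20.2% H3K4me1 cover in PCA3 and 26.6% of its H3K27ac length in H3K4me1. Requiring 50% of a region to be covered left 49.3% of H3K27ac and 60.4% of H3K4me1 regions overlapping. No share over all chromosomes is given here for these values or for the 100% overlap, so they are not read further. A joining distance of 5 kb gave a cluster of 70.5 kb. Merging within 1 kb raised the median width to 2400 bp for H3K27ac and 2200 bp for H3K4me1, by construction. Moving the gene bounds by 1 kb either way is too small a shift to change a covered share by over 1.5 times. That none moved was therefore fixed in advance, and the 69 values include these shifts. The H3K27ac cover of the flank before the PRUNE2 start went from 9.24% to 7.67% with bounds moved up and 10.8% with bounds moved down. The 5′ side stayed the most covered segment for both marks under every setting of scores, merging and bounds, while PCA3 and the 3′ side changed places under the median score for both marks and under the added limit for H3K4me1. No paired analysis was possible because a single library stands for each mark. Since depth is unknown, stretches without regions cannot be read further.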
